A study of Mus musculus with 16 samples.

Results

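The genes described here encode proteins that write and read methylation of lysine 9 of histone H3 (H3K9) or build heterochromatin: the histone methyltransferases Setdb1, Ehmt1, Ehmt2, Suv39h1 and Suv39h2, the corepressor Trim28, the heterochromatin protein 1 (HP1) family members Cbx1, Cbx3 and Cbx5, and the chromatin remodeller Atrx. Members were every non-control probe whose RefSeq accession belongs to one of these 10 genes, which gave 16 probes among 55681 on the array, where 21171 genes had a name. Of these, 15 probes of 9 genes were bright enough to be tested, among 27126 probes of all kinds. The question was whether this silencing machinery differed in mouse embryonic stem cells (mESCs) that lack DNA methylation, or that keep it, when they are grown in serum or in 2i.

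Total RNA was hybridised to 16 single-colour (Cy3) Agilent arrays, with a separate array for each sample. J1 is a male wild-type line. TKO mESCs have all 3 active DNA methyltransferase genes (Dnmt1, Dnmt3a, Dnmt3b) deleted. In 3B3l mESCs (3B3-3l in the labels) Dnmt3a and Dnmt3b are deleted, while a transgenic Dnmt3b and its cofactor Dnmt3l are expressed constitutively. Serum medium held foetal calf serum and the cytokine LIF, which the study's methods give at a lower dose in serum than in 2i. The 2i medium held no serum, but N2 and B27 supplements, LIF, 1 uM of the MEK inhibitor PD0325901 and 3 uM of the GSK3 inhibitor CHIR99021, and 2i cells had spent 2 weeks in it. There were 4 J1-serum and 3 J1-2i samples, 2 TKO-serum and 3 TKO-2i samples, and 2 samples each of 3B3l-serum and 3B3l-2i. By the study's methods only J1-serum was grown on inactivated feeder fibroblasts, and the other cultures were feeder-free on gelatin. The labels do not say whether replicates were separate cultures, so p-values measure the spread between these samples, which may be technical. The J1 response to 2i and the comparisons of TKO-serum and 3B3l-serum with J1-serum share the J1-serum arrays, as do the tests between responses.

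As background, Setdb1 is brought to chromatin by Trim28, which is itself recruited by KRAB zinc-finger proteins, and in mESCs this pathway silences endogenous retroviruses through H3K9 trimethylation. Ehmt1 and Ehmt2 (GLP and G9a) act together as the main writers of H3K9 mono- and dimethylation in euchromatin, while Suv39h1 and Suv39h2 trimethylate H3K9 at pericentric repeats. The HP1 proteins bind methylated H3K9 through their chromodomain, and Atrx works with Daxx to place the histone variant H3.3 in repeats and telomeres. DNA methylation and H3K9 methylation often mark the same silent sequences.

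Values below are relative log2 signals: log2 of the array intensity minus the 75th percentile of log2 values on the same array, so that 1 unit is a 2-fold difference. They compare samples for the same probe and do not compare probes with each other. The 75th percentile lay between 1019 and 1797 intensity units, and 39.7% to 49.0% of spots were well above background. As a check of the labels on the deleted genes, Dnmt1 was lower in TKO than in J1 with differences of -3.48 in serum and -3.93 in 2i (log2), and Dnmt3a was at least 18.0-fold lower in TKO-serum and at least 8.23-fold lower in 3B3l-serum than in J1-serum. The 10 embryonic stem cell markers were above background on every array. Of 15 fibroblast markers listed, 10 could be tested, and 9 were above background on every J1-serum array. The mean relative log2 signal of the 10 tested markers was 1.24 to 1.43 per J1-serum array. That mean was -2.79 to -2.65 in J1-2i, -1.26 to -0.99 in TKO-serum, -2.66 to -2.30 in TKO-2i, 0.11 to 0.24 in 3B3l-serum and -2.09 to -2.06 in 3B3l-2i, where 3 (J1-2i) to 8 (3B3l-serum) of the 10 were above background throughout. The 8 primitive endoderm markers averaged 1.01 to 1.25 in J1-serum and -3.35 to -1.79 elsewhere. Fibroblast markers were thus also present in the feeder-free 3B3l-serum, at a lower mean than in J1-serum. Tagln (4.39 against 3.81) and Twist2 were higher there than in J1-serum, and all other tested fibroblast markers were lower. Every comparison with J1-serum and every response to 2i therefore crosses a difference in the mean of the fibroblast and endoderm markers, whose part in the results was not tested. The arrays lay on 3 slides. Slide 1 held J1 and TKO arrays, and slide 2 held 1 array each of J1-serum, J1-2i and TKO-2i. Slide 3, scanned on another day, carried the 3B3l arrays with J1-serum replicate 1. No slide held both 3B3l-2i and J1-2i arrays, so line and slide cannot be told apart between these groups. With slide as a block, differences between 3B3l and J1 in the same medium rest on J1-serum replicate 1 alone.

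The promoters of these genes are shown because the lines differ in DNA methylation, which in mammals falls mainly on CpG. RefSeq promoters (GRCm38.p6), which run from upstream of a start to just after it, matched all 10 genes, with 14 starts. Each of the 14 held at least as many CpG as the median promoter: 8 to 40 CpG, with a median of 28.5, against a median of 7 over 32851 promoters, of which 94.6% hold at least 1. Printed from 5′ to 3′ with every CG in capitals are the promoters of Setdb1 (chr3:95357153-95357452, minus strand, 15 CpG), Trim28 (chr7:13023902-13024201, plus strand, 23 CpG), Ehmt2 (first of a pair of starts, chr17:34898224-34898523, plus strand, 28 CpG) and Cbx5 (first of a pair of starts, chr15:103239803-103240102, minus strand, 29 CpG, while the second start has 8), the 4 members with a difference between lines that stayed past the adjusted p of 0.05 in limma under every other scaling, filter, block, slide or left-out array tried. The arrays did not measure methylation of these bases.
Setdb1: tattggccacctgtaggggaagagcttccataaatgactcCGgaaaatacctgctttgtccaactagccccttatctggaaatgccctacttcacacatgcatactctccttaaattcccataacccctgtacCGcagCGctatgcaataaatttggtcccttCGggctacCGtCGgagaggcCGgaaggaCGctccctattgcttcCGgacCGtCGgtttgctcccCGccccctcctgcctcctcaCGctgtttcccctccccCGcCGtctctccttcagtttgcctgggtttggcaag
Trim28: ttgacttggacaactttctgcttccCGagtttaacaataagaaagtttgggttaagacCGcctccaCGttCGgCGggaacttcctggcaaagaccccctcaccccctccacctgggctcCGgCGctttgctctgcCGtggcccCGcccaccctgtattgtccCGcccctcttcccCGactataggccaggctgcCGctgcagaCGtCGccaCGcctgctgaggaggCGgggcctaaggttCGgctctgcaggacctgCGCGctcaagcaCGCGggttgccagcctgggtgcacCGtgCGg
Ehmt2: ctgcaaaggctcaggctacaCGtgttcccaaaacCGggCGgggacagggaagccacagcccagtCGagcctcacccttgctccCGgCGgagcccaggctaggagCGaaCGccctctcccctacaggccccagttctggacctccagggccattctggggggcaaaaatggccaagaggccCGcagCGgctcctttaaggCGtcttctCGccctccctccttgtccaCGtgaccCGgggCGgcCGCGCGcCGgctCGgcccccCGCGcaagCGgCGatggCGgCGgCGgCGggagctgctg
Cbx5: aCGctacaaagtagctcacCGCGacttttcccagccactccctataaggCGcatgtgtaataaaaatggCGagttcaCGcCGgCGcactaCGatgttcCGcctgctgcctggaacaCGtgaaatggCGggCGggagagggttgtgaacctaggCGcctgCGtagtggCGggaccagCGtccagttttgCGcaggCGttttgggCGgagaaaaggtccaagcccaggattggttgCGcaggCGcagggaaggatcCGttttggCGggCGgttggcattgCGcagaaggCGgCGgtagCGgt

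The comparison of TKO with J1 asked whether the machinery differs where DNA methylation is absent. In serum, Setdb1, Trim28, Cbx5 and Atrx were higher in TKO than in J1 and Suv39h1 was lower, so 5 of 9 members passed a Benjamini-Hochberg adjusted p of 0.05 in limma, against 45.8% of all genes tested. In 2i, where neither line had feeders, Setdb1, Ehmt2 and Cbx5 were higher in TKO, so that 3 of 9 passed against 26.4% of all genes. 3B3l-serum differed from J1-serum in 7 of 9 members (6 higher, Suv39h1 lower, 52.6% of all genes), of which 3, Setdb1, Trim28 and Cbx5, passed with slide as a block, and 3B3l-2i from J1-2i in 3 of 9, each of them higher (43.7%). After 2 weeks in 2i, 5 of 9 members differed in J1 (55.0% of all genes), 3 of 9 in TKO (38.8%) and 2 of 9 in 3B3l (31.2%). These shares lie on both sides of the background and count few genes. With a 2-fold limit as well, the members left were Suv39h1 in the J1 response (1 of 9, with 22.7% of all genes), Ehmt2 in the 3B3l response (1 of 9, 13.6%), Cbx5 in TKO-serum against J1-serum (1 of 9, 16.5%), and Setdb1, Trim28 and Cbx5 in 3B3l-serum against J1-serum (3 of 9, 19.3%). By that limit 0 of 9 were left in the TKO response (15.8% of all genes), in TKO-2i against J1-2i (7.38%) and in 3B3l-2i against J1-2i (14.4%), where limma gave 4, 5 and 5 at an unadjusted p under 0.05. Trim28 lay just under that limit in TKO-serum, where 1 of its 2 arrays was saturated, so its fold is a lower limit and the count of 1 there may be too low. A gene with several probes was counted by its brightest.

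**Figure D1:**
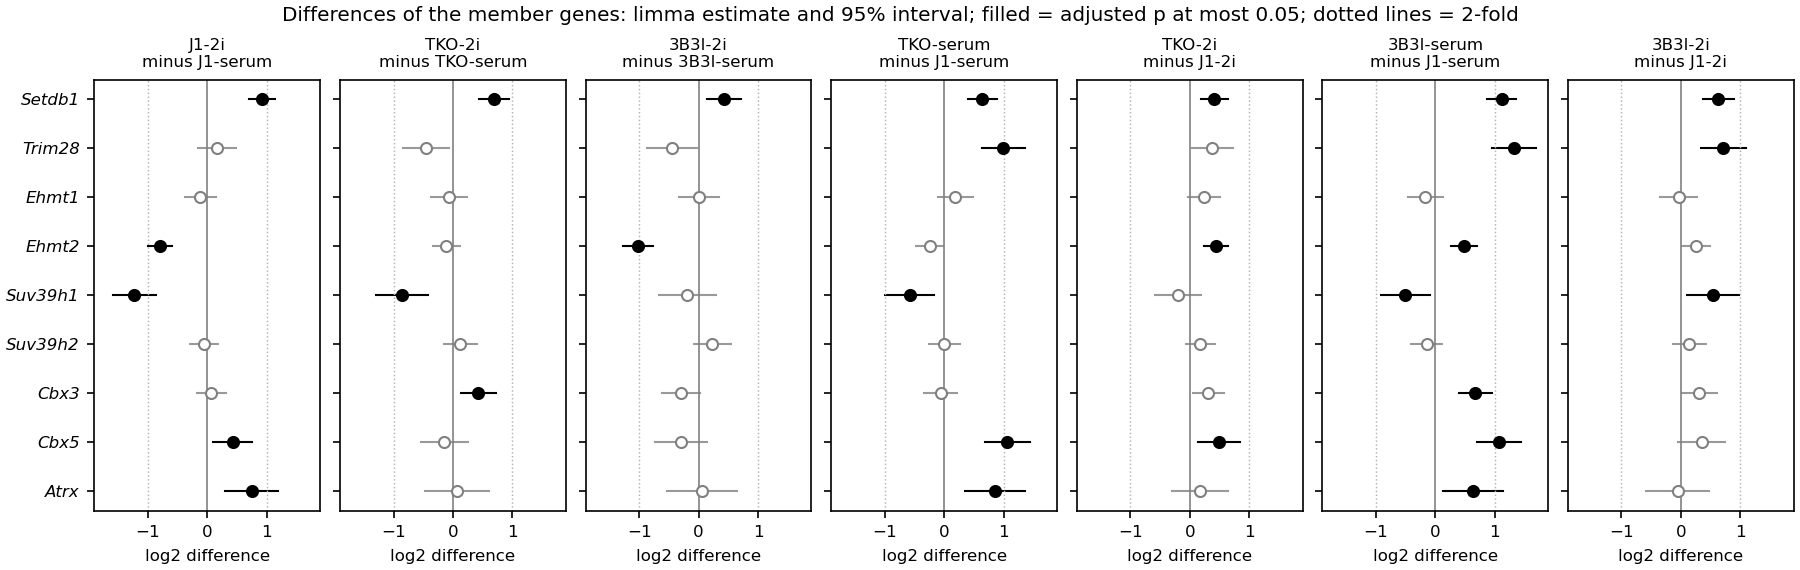
Log2 difference of the 9 tested member genes in the 7 comparisons of groups, with the 95% interval from limma. Filled points have an adjusted p of at most 0.05, and dotted lines mark 2-fold. Setdb1 lies to the right of 0 in every panel, and Trim28 and Cbx5 lie farthest from 0 in TKO-serum minus J1-serum.

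Setdb1, which trimethylates H3K9, was the member with the widest range of group means, 1.55 log2 units, and it passed in all 7 comparisons of groups. In relative log2 signal, J1-serum had 0.89, 1.03, 0.97 and 0.99 and J1-2i 1.86, 1.78 and 2.01. TKO-serum had 1.80 and 1.42 and TKO-2i 2.39, 2.21 and 2.30. 3B3l-serum had 2.06 and 2.11 and 3B3l-2i 2.52 and 2.51. Every 2i array stood above every serum array of the same line, and the J1-serum arrays stood below all others. In order, the means were 2.51 ± 0.0041 (SD, n = 2) in 3B3l-2i, 2.30 ± 0.09 (SD, n = 3) in TKO-2i, 2.08 ± 0.03 (SD, n = 2) in 3B3l-serum, 1.88 ± 0.12 (SD, n = 3) in J1-2i, 1.61 ± 0.27 (SD, n = 2) in TKO-serum, with J1-serum last at 0.97 ± 0.06 (SD, n = 4). Of these neighbours only J1-2i and TKO-serum overlapped. Setdb1 rose in 2i by 0.91 ± 0.10 (SE, adjusted p 6.5e-06) in J1, 0.69 ± 0.12 (SE, adjusted p 6.0e-04) in TKO and 0.43 ± 0.13 (SE, adjusted p 0.028) in 3B3l, as log2 differences from limma. Within slide 1 the first of these was 0.95 (adjusted p 0.0031) and the second 0.64 (adjusted p 0.021), while the third missed the threshold under 7 of 13 alternatives, among them the loss of any single 3B3l array. Between the single J1-2i and J1-serum arrays of slide 2 the difference was 0.75.

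Against J1-serum, Setdb1 was higher by 0.64 ± 0.11 (SE, adjusted p 5.6e-04) in TKO-serum and 1.12 ± 0.11 (SE, adjusted p 5.1e-06) in 3B3l-serum. The first was 0.63 (adjusted p 0.020) among slide 1 arrays. The second was 1.20 (adjusted p 3.3e-04) with slide as a block, a value that rests on the single J1-serum array of slide 3. The order of the lines was the same in 2i. By limma, TKO-2i exceeded J1-2i by 0.42 ± 0.11 (SE, adjusted p 0.013) and 3B3l-2i exceeded it by 0.63 ± 0.12 (SE, adjusted p 0.0013). No slide held both 3B3l-2i and J1-2i arrays, so line and slide cannot be told apart in the latter difference. The TKO-2i difference did not pass under array median scaling, within slide 1 (0.32, adjusted p 0.18) or without J1-2i replicate 2 (0.37, adjusted p 0.057). In bulk RNA, a smaller share of expressing cells and less RNA per cell cannot be told apart, here and below.

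**Figure D2:**
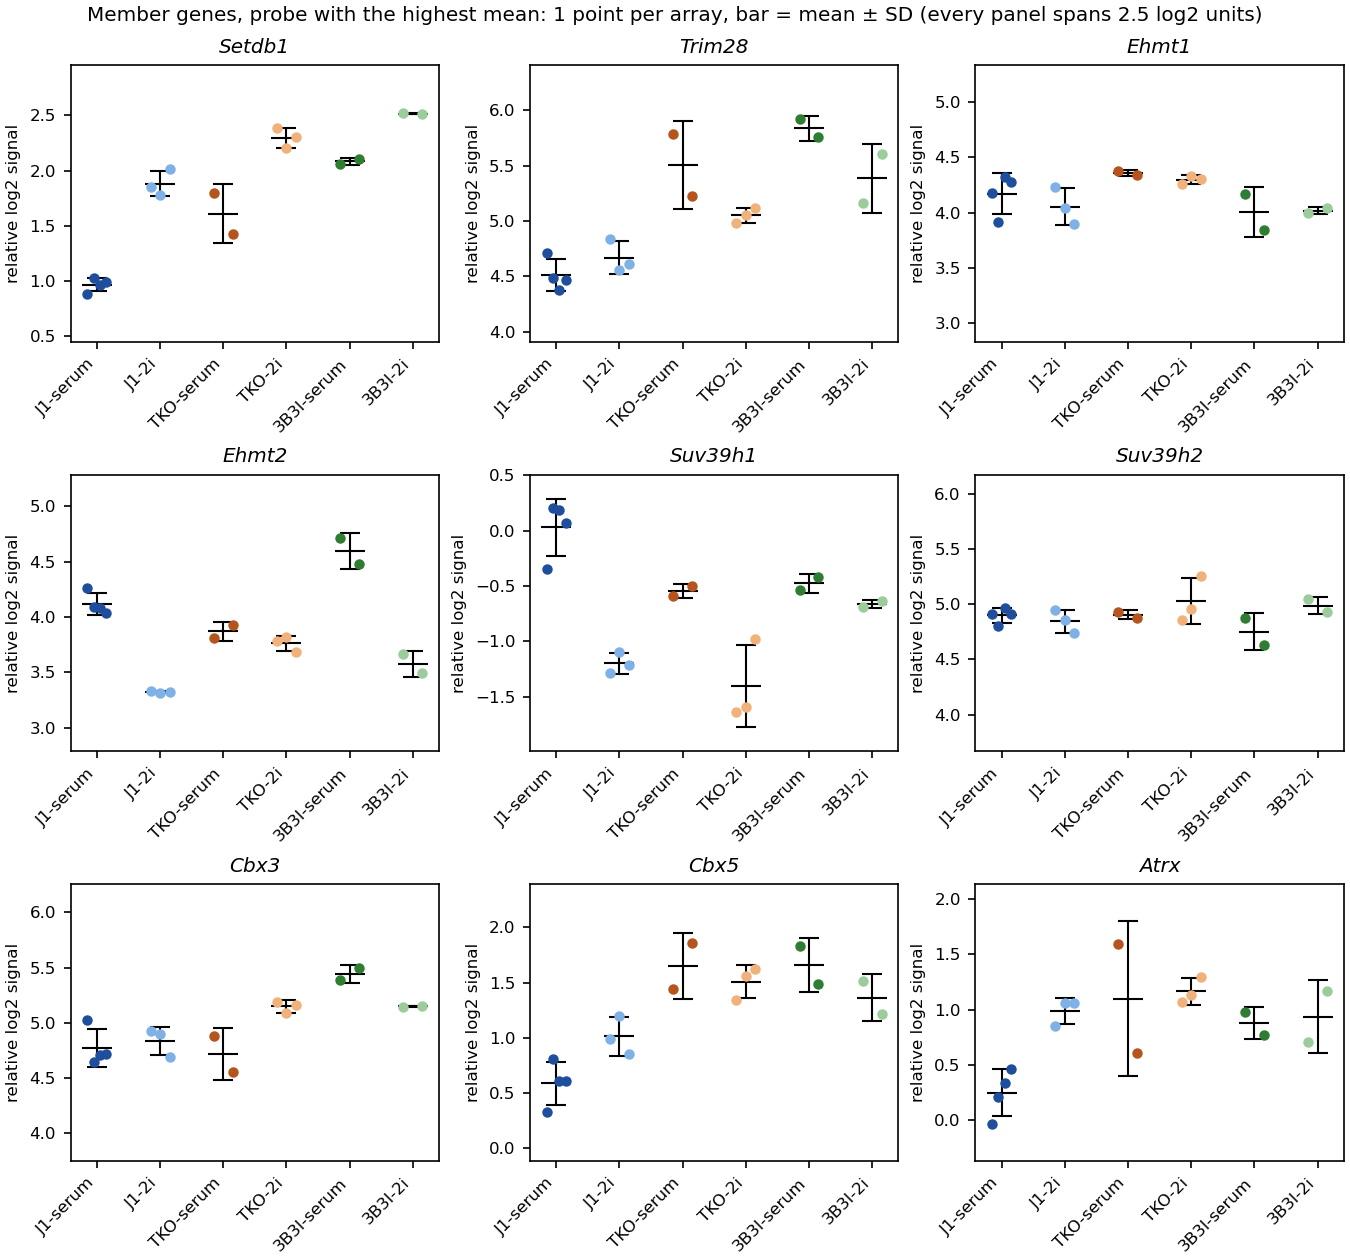
Relative log2 signal of the brightest probe of each tested member, with 1 point per array and the mean ± SD of each group as a bar. All panels span 2.5 log2 units. J1-serum is the lowest group for Setdb1, Trim28, Cbx5 and Atrx, Suv39h1 is highest there, and Ehmt1 and Suv39h2 vary least.

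Trim28, the corepressor that recruits Setdb1, was higher in both mutant lines than in J1 when cells were in serum. J1-serum had 4.71, 4.49, 4.37 and 4.47 and J1-2i 4.84, 4.56 and 4.61 (relative log2 signal). TKO-serum had 5.79 and 5.22 and TKO-2i 4.98, 5.05 and 5.12. 3B3l-serum had 5.92 and 5.76 and 3B3l-2i 5.17 and 5.60. Neither mutant line overlapped J1-serum, whereas TKO-serum, 3B3l-serum and 3B3l-2i overlapped at the top of the order. The log2 difference from J1-serum was 1.00 ± 0.17 (SE, adjusted p 4.3e-04) in TKO-serum and 1.33 ± 0.17 (SE, adjusted p 3.5e-05) in 3B3l-serum. The first was 1.09 (adjusted p 0.0071) within slide 1, and the second 1.12 against the single J1-serum array on slide 3. The TKO-serum array with the value 5.79 was saturated for this probe, so its level is a lower limit. In 2i the difference from J1-2i was 0.38 ± 0.16 (SE, adjusted p 0.10) in TKO-2i, which did not pass, and 0.72 ± 0.18 (SE, adjusted p 0.0071) in 3B3l-2i. The latter was lost without 3B3l-2i replicate 2 (0.50, adjusted p 0.089), with slide as a block (0.45, adjusted p 0.30), in the authors' table and after quantile normalization. No response of Trim28 to 2i passed: the differences were 0.16 in J1 (adjusted p 0.41), -0.46 in TKO (adjusted p 0.070) and -0.45 in 3B3l (adjusted p 0.12), with 95% intervals of -0.16 to 0.48, -0.84 to -0.07 and -0.87 to -0.03. The TKO response passed, as a fall, in the authors' table and after quantile normalization. It also did without TKO-serum replicate 2, which leaves the saturated array alone in its group. Wherever a group is left with 1 array, here and below, that array is assumed to vary as the other groups do.

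Ehmt2, the catalytic partner of Ehmt1, fell in 2i in J1 and 3B3l but did not pass in TKO. In relative log2 signal, J1-serum had 4.26, 4.09, 4.08 and 4.03 and J1-2i 3.33, 3.31 and 3.32. TKO-serum had 3.81 and 3.93 and TKO-2i 3.78, 3.82 and 3.69. 3B3l-serum had 4.72 and 4.48 and 3B3l-2i 3.66 and 3.50. The J1-2i arrays lay within 0.02 of each other and below all others, and the TKO arrays of both media overlapped. The 2i response was -0.80 ± 0.09 (SE, adjusted p 9.1e-06) in J1, -1.02 ± 0.12 (SE, adjusted p 3.0e-05) in 3B3l and -0.11 ± 0.11 (SE, adjusted p 0.48) in TKO, whose 95% interval ran from -0.34 to 0.12. The test of the difference between the TKO and J1 responses gave 0.69 ± 0.14 (SE, adjusted p 0.0029), the only member gene of 9 to pass that test by its brightest probe, against 30.4% of all genes. It was 0.61 (adjusted p 0.033) within slide 1 and 0.63 (adjusted p 0.0074) with slide as a block. The 3B3l and J1 responses differed by -0.22 ± 0.15 (SE, adjusted p 0.31), which did not pass. Between lines, Ehmt2 was higher in TKO-2i than in J1-2i by 0.44 ± 0.10 (SE, adjusted p 0.0052), and within slide 1 by 0.43 (adjusted p 0.035). TKO-serum and J1-serum differed by -0.25 ± 0.10 (SE, adjusted p 0.075), which passed, as lower in TKO-serum, only in the authors' table and after quantile normalization. 3B3l-serum exceeded J1-serum by 0.48 ± 0.10 (SE, adjusted p 0.0018), but by 0.34 (adjusted p 0.081) with slide as a block and 0.22 (adjusted p 0.12) under quantile normalization.

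Ehmt1 had 2 probes and its brighter one passed in no comparison, with log2 differences from -0.16 (3B3l-serum minus J1-serum) to 0.24 (TKO-2i minus J1-2i) and group means within 0.35 of each other. The second probe passed only in the TKO response, at -0.53 ± 0.17 (SE, adjusted p 0.030). On that probe the TKO-serum arrays had 3.11 and 2.46 against 2.36, 2.25 and 2.14 in TKO-2i, so the serum arrays lay far apart and above all 2i arrays. In the authors' table and after quantile normalization the brighter probe was lower in 3B3l-serum than in J1-serum past the threshold.

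Suv39h1, a methyltransferase of pericentric heterochromatin, was highest in J1-serum and fell in 2i in J1 and TKO. J1-serum had -0.34, 0.21, 0.19 and 0.07 and J1-2i -1.29, -1.10 and -1.21 in relative log2 signal. TKO-serum had -0.59 and -0.50 and TKO-2i -1.64, -1.59 and -0.98. 3B3l-serum had -0.54 and -0.41 and 3B3l-2i -0.69 and -0.64. J1-serum replicate 1, which shares slide 3 with the 3B3l arrays, was the lowest of its group, and TKO-2i replicate 3 stood above the other TKO-2i arrays. The response to 2i was -1.23 ± 0.17 (SE, adjusted p 4.8e-05) in J1, a 2.35-fold fall, and -0.86 ± 0.20 (SE, adjusted p 0.0050) in TKO. In 3B3l it was -0.19 ± 0.22 (SE, adjusted p 0.65), with a 95% interval of -0.66 to 0.29. The 3B3l response differed from that of J1 by 1.04 ± 0.27 (SE, adjusted p 0.013), but by 0.98 (adjusted p 0.053) without 3B3l-serum replicate 1. With slide as a block this difference was 1.17 (adjusted p 0.0056). The TKO and J1 responses differed by 0.37 ± 0.26 (SE, adjusted p 0.34), which did not pass.

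The differences of Suv39h1 between lines were less stable. Its log2 difference from J1-serum was -0.58 ± 0.19 (SE, adjusted p 0.028) in TKO-serum and -0.51 ± 0.19 (SE, adjusted p 0.044) in 3B3l-serum, and that of 3B3l-2i from J1-2i was 0.54 ± 0.20 (SE, adjusted p 0.049). These missed the threshold in 8 of 15, 12 of 15 and 9 of 13 alternatives. Either mutant array left out had this effect in each of the 3, as had J1-serum replicate 2, 3 or 4 in the serum comparisons and any J1-2i array in the last. With slide as a block the 3B3l-serum value was -0.13 (adjusted p 0.73) and the 3B3l-2i value 1.04 (adjusted p 0.031), so the slide term moved the first towards 0 and the second away from it. Both blocked values rest on the single J1-serum array of slide 3, and no slide held both 3B3l-2i and J1-2i arrays. Suv39h2, its paralogue, did not pass by its brighter probe in any comparison, with group means within 0.27 of each other, although it was lower in 3B3l-serum than in J1-serum past the threshold in the authors' table and after quantile normalization. Its second probe passed only for 3B3l-2i against J1-2i, at -0.62 ± 0.13 (SE, adjusted p 0.0022), with arrays at 0.22 and 0.44 against 0.79, 1.08 and 0.99. The brighter probe gave 0.14 ± 0.13 (SE, adjusted p 0.41) there.

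Among the HP1 readers, Cbx5 (HP1 alpha) was higher in serum in both mutant lines. By its brighter probe, in relative log2 signal, J1-serum had 0.33, 0.81, 0.61 and 0.61 and J1-2i 0.99, 1.20 and 0.85. TKO-serum had 1.44 and 1.86 and TKO-2i 1.34, 1.56 and 1.62. 3B3l-serum had 1.83 and 1.49 and 3B3l-2i 1.51 and 1.21. The J1-serum arrays lay below every other array, and the J1-2i arrays lay between them and the mutant lines. The log2 difference from J1-serum was 1.06 ± 0.17 (SE, adjusted p 3.3e-04) in TKO-serum and 1.07 ± 0.17 (SE, adjusted p 2.5e-04) in 3B3l-serum, the first 1.04 (adjusted p 0.0034) within slide 1 and the second 1.33 against the single J1-serum array on slide 3. The second probe gave 0.38 ± 0.17 (SE, adjusted p 0.095) and 0.75 ± 0.17 (SE, adjusted p 0.0025), so only the 3B3l-serum difference passed by both probes. The higher TKO-2i signal against J1-2i (0.49 ± 0.16, SE, adjusted p 0.046) missed the threshold in 9 of 15 alternatives, among them without J1-2i replicate 1 or 3 and without TKO-2i replicate 2 or 3. The second probe gave -0.09 ± 0.16 (SE, adjusted p 0.73) there.

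The probes of Cbx5 had opposite signs in the J1 response to 2i. In J1 the brighter probe gave 0.42 ± 0.15 (SE, adjusted p 0.036) and the second -0.43 ± 0.15 (SE, adjusted p 0.027). On the second probe, J1-serum had -0.86, -1.25, -1.05 and -1.15 and J1-2i -1.68, -1.56 and -1.29, without overlap. This probe fell in TKO with a log2 difference of -0.90 ± 0.18 (SE, adjusted p 0.0015) and in 3B3l with one of -0.75 ± 0.19 (SE, adjusted p 0.011), where the brighter one gave -0.14 ± 0.18 (SE, adjusted p 0.59) and -0.30 ± 0.20 (SE, adjusted p 0.35). The rise on the brighter probe in J1 missed the threshold in 11 of 16 alternatives, among them without J1-serum replicate 1, 3 or 4 and without J1-2i replicate 1 or 2, so no direction is given for the response of Cbx5 as a gene. Both probes carry the same RefSeq accession, and where in the transcript each lies was not analysed here.

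Cbx3 (HP1 gamma) differed from J1-serum in 3B3l-serum by both probes, at 0.67 ± 0.13 (SE, adjusted p 8.8e-04) and 1.06 ± 0.22 (SE, adjusted p 0.0016). On the brighter probe 3B3l-serum had 5.39 and 5.50 against 5.03, 4.65, 4.71 and 4.72 in J1-serum, without overlap. With slide as a block its difference was 0.42 (adjusted p 0.061), and under quantile normalization 0.36 (adjusted p 0.069). J1-serum replicate 1, on the slide of the 3B3l arrays, was the highest of its group on both probes. In TKO the brighter probe rose in 2i by 0.43 ± 0.13 (SE, adjusted p 0.027), with 5.19, 5.09 and 5.17 in TKO-2i against 4.88 and 4.56 in TKO-serum. That call was lost in 7 of 13 alternatives, among them without TKO-serum replicate 2 (0.26, adjusted p 0.24) or without TKO-2i replicate 1 or 3, and the second probe gave 0.28 ± 0.23 (SE, adjusted p 0.39). The J1 and 3B3l responses did not pass by either probe. For Cbx1 (HP1 beta) the single probe was not well above background on any of the 16 arrays, at 37.5 to 214 intensity units, and it was not tested, so no level of the gene is read from it.

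Atrx, the remodeller that partners Daxx, was lowest in J1-serum on all 3 of its probes. In relative log2 signal on the brightest, J1-serum had -0.03, 0.21, 0.34 and 0.47 and J1-2i 0.86, 1.06 and 1.06. TKO-serum had 1.59 and 0.61 and TKO-2i 1.07, 1.13 and 1.30. 3B3l-serum had 0.98 and 0.77 and 3B3l-2i 0.70 and 1.17. The pair of TKO-serum arrays lay far apart (SD 0.70), and apart from J1-serum all neighbouring groups overlapped. Atrx rose in 2i in J1 by 0.74 ± 0.21 (SE, adjusted p 0.0093), and within slide 1 the difference was 0.55 (adjusted p 0.20). The excess over J1-serum was 0.85 ± 0.23 (SE, adjusted p 0.011) in TKO-serum, which was 0.36 (adjusted p 0.24) without TKO-serum replicate 1 and 0.70 (adjusted p 0.13) within slide 1, and 0.63 ± 0.23 (SE, adjusted p 0.043) in 3B3l-serum, which missed the threshold in 11 of 15 alternatives, among them without J1-serum replicate 1, 2 or 3 and without either 3B3l-serum array. In 2i neither mutant line differed from J1 past the threshold.

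The second Atrx probe gave tighter values. J1-serum had -2.17, -1.78, -1.86 and -2.01 and J1-2i -1.23, -1.09 and -1.09 on that probe. TKO-serum had -0.64 and -0.62 and TKO-2i -1.30, -1.05 and -0.90. 3B3l-serum had -0.55 and -1.11 and 3B3l-2i -1.06 and -0.92. All J1-serum arrays were below all others. Its J1 response was 0.82 ± 0.14 (SE, adjusted p 4.1e-04), and its differences from J1-serum were 1.33 ± 0.16 (SE, adjusted p 3.3e-05) in TKO-serum and 1.12 ± 0.16 (SE, adjusted p 1.1e-04) in 3B3l-serum. In TKO and 3B3l the response to 2i was -0.45 ± 0.17 (SE, adjusted p 0.063) and -0.15 ± 0.19 (SE, adjusted p 0.67), and it differed from the J1 response by -1.27 ± 0.22 (SE, adjusted p 0.0011) and -0.97 ± 0.24 (SE, adjusted p 0.0085). The brightest probe gave -0.68 ± 0.32 (SE, adjusted p 0.15) and -0.69 ± 0.34 (SE, adjusted p 0.17) for the same differences, which did not pass, although the first did without TKO-serum replicate 2. The third probe was well above background on 10 of 16 arrays, among them 1 of 4 in J1-serum, 2 of 3 in J1-2i and all 3B3l arrays, so its J1 levels are partly unmeasured. On it, J1-serum had -2.31, -3.10, -2.68 and -2.89, J1-2i -2.49, -2.48 and -2.16, 3B3l-serum -1.37 and -0.55 and 3B3l-2i -0.85 and -0.50, so both 3B3l groups lay above all J1 arrays. It passed only in 3B3l, against J1-serum (adjusted p 3.2e-04) and J1-2i (adjusted p 0.0012), with sizes that rest on the partly unmeasured J1 levels. The first and second probes differed between 3B3l-2i and J1-2i by -0.06 and 0.15. The difference between the probes of Atrx was not tested.

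**Figure D3:**
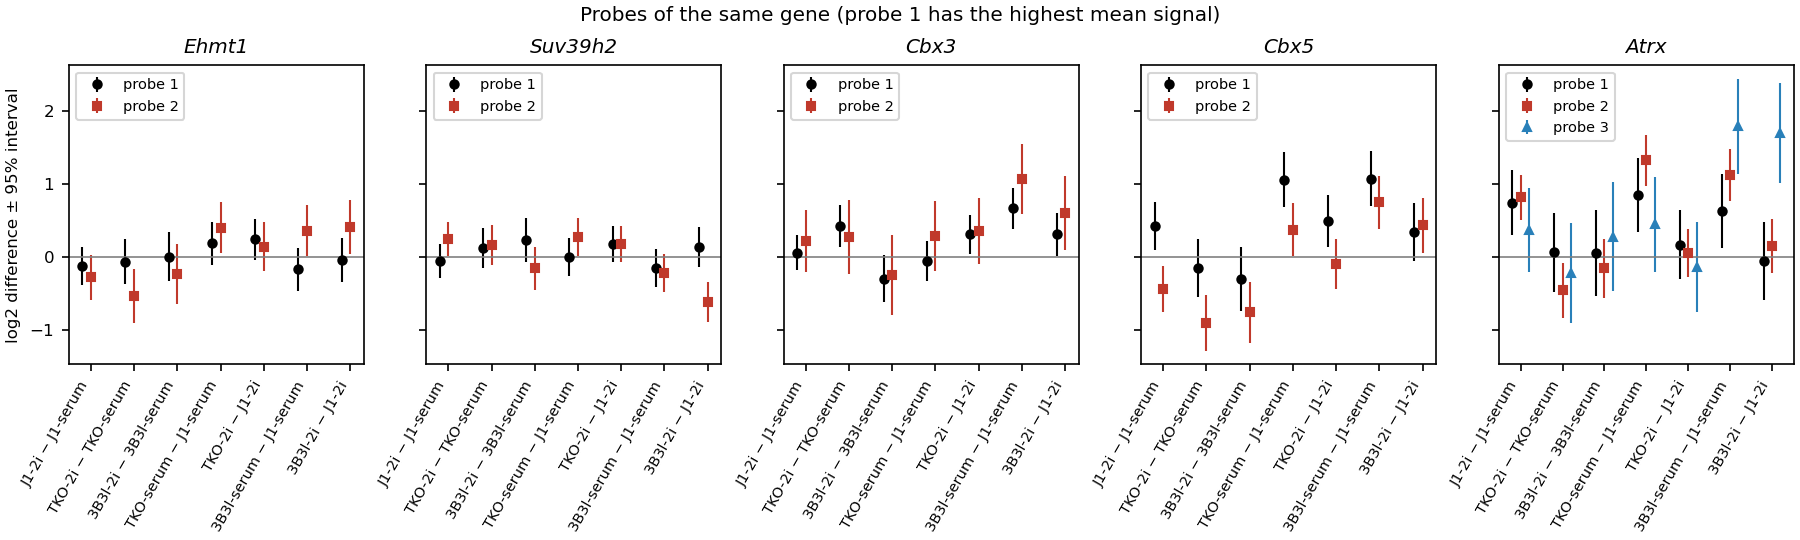
Log2 difference with its 95% interval for every tested probe of the 5 members with more than 1 tested probe, in the 7 comparisons of groups. Probe 1 has the highest mean signal. The probes of Cbx5 lie on opposite sides of 0 in the J1 response, and the interval of the third Atrx probe lies clear of the other 2 in 3B3l-2i minus J1-2i, where it was well above background on 2 of 3 J1-2i arrays.

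The difference between the 2i responses of 3B3l and J1 was tested as well, and 2 of 9 members passed by their brightest probe, against 31.9% of all genes: Suv39h1, given above, and Setdb1, whose response was smaller in 3B3l, with a log2 difference of -0.48 ± 0.16 (SE, adjusted p 0.045). The Setdb1 difference missed the threshold in 15 of 19 alternatives, among them the loss of any single 3B3l array, of any single J1-serum array and of J1-2i replicate 1 or 3. For Trim28 the responses of TKO and 3B3l each differed from that of J1 by -0.61 (adjusted p 0.071 and 0.088), and for Cbx5 by -0.57 and -0.72 (adjusted p 0.10 and 0.052), none of them past the threshold. The Trim28 difference passed for TKO after quantile normalization, in the authors' table and without J1-serum replicate 1 or TKO-serum replicate 2, and for 3B3l with normexp correction and without 3B3l-2i replicate 2. The Cbx5 difference passed for both lines under array median scaling, and for 3B3l with a stricter filter on dim probes and without J1-serum replicate 2, J1-2i replicate 3, 3B3l-serum replicate 2 or 3B3l-2i replicate 1.

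The wider machinery was followed in a list of 49 other genes of H3K9 methylation and heterochromatin, of which 48 were on the array and 45 were tested. Setdb2, Mecom, Prdm16 and Kdm4d were not tested. Against J1-serum, 25 of 45 passed in TKO-serum, 18 higher and 7 lower, where 22.7% and 23.1% of all genes did, and the median log2 difference of the list was 0.31 against 0.01 for all genes. In 3B3l-serum 32 passed, 28 higher and 4 lower (30.8% and 21.8% of all genes), with a median of 0.47 against 0.13. In 2i, 7 passed between TKO and J1, 3 higher and 4 lower (13.0% and 13.4% of all genes), and 17 between 3B3l and J1, 13 higher and 4 lower (25.2% and 18.4%). The 2i response passed for 23 in J1 (20 higher, 3 lower, 30.1% and 25.0% of all genes), 16 in TKO (10 and 6, 20.8% and 17.9%) and 13 in 3B3l (8 and 5, 15.9% and 15.4%). Leaving out any 1 array gave 1 to 4 for TKO-2i against J1-2i and 7 or 8 for the 3B3l response, which gave 2 within slide 3, 5 without a filter on dim probes and 8 with a replicate block. Other scalings, the authors' table, no filter and slide 1 alone gave 1 to 4 for TKO-2i against J1-2i. The TKO response gave 10 without TKO-2i replicate 2, 3B3l-2i against J1-2i 10 without 3B3l-2i replicate 1 and 7 with slide as a block, and 3B3l-serum against J1-serum 10 within slide 3. The 15 genes named next are those that passed with at least a 2-fold difference in at least 1 comparison of groups, and their values below are log2 differences from the same fit.

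**Figure D4:**
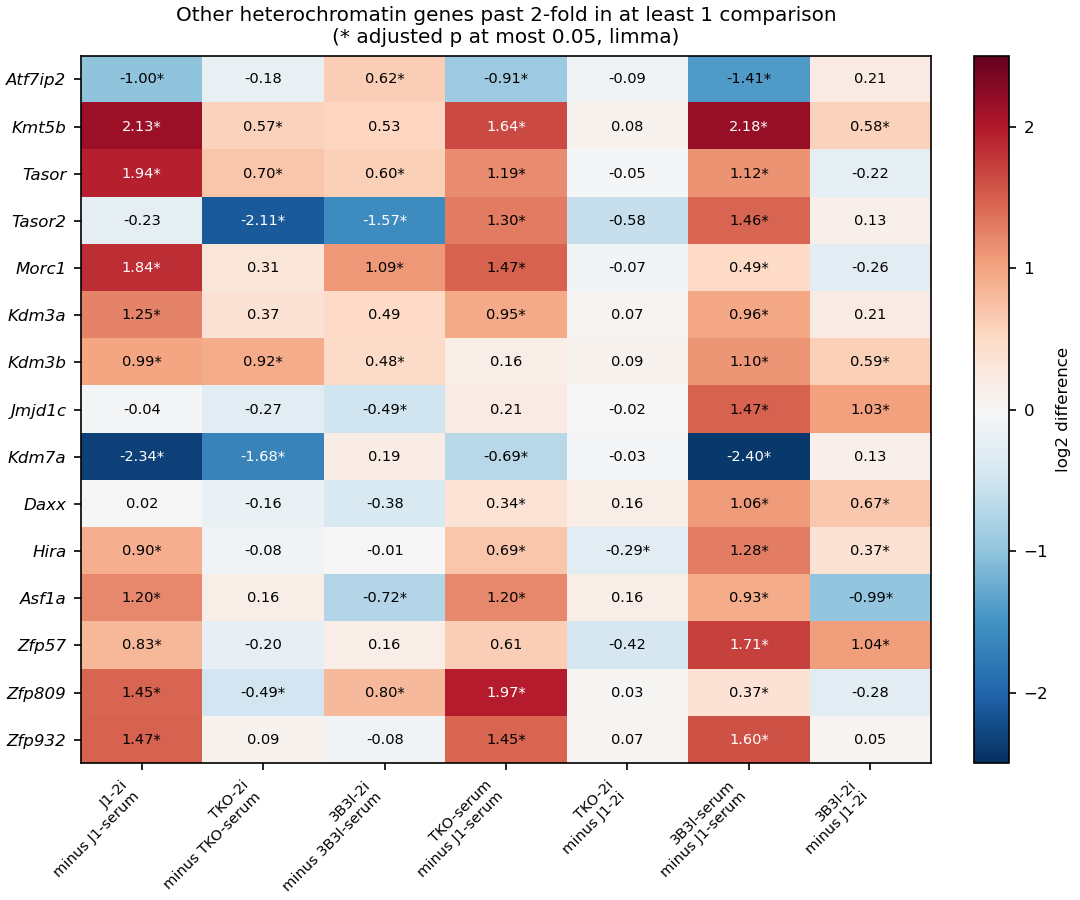
Log2 difference of the 15 other heterochromatin genes that passed 2-fold in at least 1 of the 7 comparisons of groups, with an asterisk for an adjusted p of at most 0.05. Columns are comparisons, and colour runs from lower (blue) to higher (red). The columns against J1-serum hold most of the strong colours, and no gene reaches 2-fold in the TKO-2i minus J1-2i column. Values of Kmt5b in J1-serum and of most groups of Kdm7a are not well above background.

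HUSH is a complex that silences transposable elements together with Setdb1, and Tasor is its scaffold. Tasor rose in 2i in all 3 lines, by 1.94 ± 0.13 (SE, adjusted p 5.5e-08) in J1, 0.70 ± 0.15 (SE, adjusted p 0.0030) in TKO and 0.60 ± 0.16 (SE, adjusted p 0.017) in 3B3l. It exceeded J1-serum by 1.19 in TKO-serum (adjusted p 2.8e-05) and 1.12 in 3B3l-serum (adjusted p 3.7e-05). Its paralogue Tasor2 was also higher than in J1-serum in TKO-serum (1.30 ± 0.22, SE, adjusted p 4.4e-04) and 3B3l-serum (1.46 ± 0.22, SE, adjusted p 1.4e-04). In 2i it fell in both mutant lines, with a response of -2.11 ± 0.23 (SE, adjusted p 1.5e-05) in TKO and -1.57 ± 0.25 (SE, adjusted p 5.3e-04) in 3B3l, while J1 gave -0.23 ± 0.19 (SE, adjusted p 0.36). The TKO-serum arrays of Tasor2 lay far apart (SD 0.72, n = 2). Morc1, a germline silencer of transposons, rose in 2i by 1.84 ± 0.14 (SE, adjusted p 1.8e-07) in J1 and 1.09 ± 0.18 (SE, adjusted p 5.3e-04) in 3B3l, and was higher in TKO-serum than in J1-serum by 1.47 ± 0.15 (SE, adjusted p 8.6e-06). Its response in TKO was 0.31 ± 0.16 (SE, adjusted p 0.18), which did not pass. Over the 7 genes of this set, 3 passed higher and 1 lower in TKO-serum, and 5 passed higher in 3B3l-serum, against J1-serum. For these counts and those of the sets below, the shares of all genes were 22.7% higher and 23.1% lower in TKO-serum and 30.8% and 21.8% in 3B3l-serum.

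Among the 9 H3K9 demethylases tested, 2 passed higher and 1 lower in TKO-serum and 5 higher and 1 lower in 3B3l-serum, against J1-serum. Enzymes of this class remove the mark that the methyltransferases among the members write. Kdm3a rose in 2i in J1 by 1.25 ± 0.16 (SE, adjusted p 2.5e-05) and exceeded J1-serum by 0.95 in TKO-serum and 0.96 in 3B3l-serum (adjusted p 9.3e-04 and 7.2e-04). Kdm3b rose in 2i in J1 by 0.99 ± 0.12 (SE, adjusted p 1.7e-05), in TKO by 0.92 ± 0.14 (SE, adjusted p 2.6e-04) and in 3B3l by 0.48 ± 0.16 (SE, adjusted p 0.042), and its mean relative log2 signal was higher in 3B3l-serum (1.36) than in J1-serum (0.25), past 2-fold (adjusted p 2.7e-05). Jmjd1c, of the same family, was higher in 3B3l than in J1 by 1.47 ± 0.14 (SE, adjusted p 2.4e-06) in serum and 1.03 ± 0.14 (SE, adjusted p 1.5e-04) in 2i. Kdm7a was well above background on the 4 J1-serum arrays and on 1 of 2 TKO-serum arrays only, so J1-serum was at least 2.94-fold above J1-2i (adjusted p 1.5e-07) and at least 1.47-fold above 3B3l-serum (adjusted p 7.2e-07).

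Of 7 partners of the methyltransferases and related enzymes, 2 passed higher and 2 lower in each mutant line in serum, against J1-serum. They included Atf7ip2, a relative of the Setdb1 cofactor Atf7ip, and Kmt5b, which methylates lysine 20 of histone H4. Atf7ip2 was lower than in J1-serum in TKO-serum (-0.91 ± 0.16, SE, adjusted p 6.5e-04) and 3B3l-serum (-1.41 ± 0.16, SE, adjusted p 1.6e-05), passed as lower in J1-2i too (adjusted p 7.8e-05), and rose in 2i in 3B3l by 0.62 ± 0.19 (SE, adjusted p 0.028). Kmt5b was not well above background on any J1-serum array. It was at least 3.72-fold higher in J1-2i, at least 2.65-fold in TKO-serum and at least 3.85-fold in 3B3l-serum (adjusted p 7.2e-08, 5.1e-06 and 3.8e-07).

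Of 8 genes for histone H3.3 and chromatin assembly, 5 passed higher in TKO-serum (22.7% of all genes) and 7 in 3B3l-serum (30.8%) against J1-serum. The probes of the H3.3 genes H3f3a and H3f3b were saturated on 12 and 3 of the 16 arrays, which compresses their differences. Daxx, the partner of Atrx, exceeded J1 in 3B3l by 1.06 ± 0.12 (SE, adjusted p 1.5e-05) in serum and 0.67 ± 0.13 (SE, adjusted p 0.0015) in 2i, and in TKO-serum by 0.34 ± 0.12 (SE, adjusted p 0.042). The H3.3 chaperone Hira rose in 2i in J1 by 0.90 ± 0.08 (SE, adjusted p 1.1e-06) and was higher than in J1-serum in TKO-serum (0.69 ± 0.09, SE, adjusted p 5.7e-05) and 3B3l-serum (1.28 ± 0.09, SE, adjusted p 2.7e-07). Asf1a, a chaperone that hands histones to Hira, rose in 2i in J1 by 1.20 ± 0.18 (SE, adjusted p 1.4e-04) but was lower in 3B3l-2i than in J1-2i, at -0.99 ± 0.22 (SE, adjusted p 0.0036). Its probe cleared the background on 3 of 4 J1-serum arrays and 1 of 2 3B3l-2i arrays, so these levels are partly unmeasured.

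The last set held 14 other heterochromatin factors, KRAB zinc-finger proteins among them, of which 6 passed higher and 3 lower in TKO-serum and 9 higher and 1 lower in 3B3l-serum, against J1-serum. Among them Lmnb1 was saturated on 1 array. Of the KRAB zinc-finger proteins that recruit Trim28, Zfp809, which binds the primer binding site of murine leukaemia virus, was higher in TKO-serum than in J1-serum by 1.97 ± 0.11 (SE, adjusted p 5.4e-08) and rose in 2i in J1 by 1.45 ± 0.10 (SE, adjusted p 8.1e-08). In TKO its 2i response was -0.49 ± 0.12 (SE, adjusted p 0.0063), and TKO-2i and J1-2i differed by 0.03 ± 0.10 (SE, adjusted p 0.87). Zfp932 rose in J1 in 2i by 1.47 ± 0.12 (SE, adjusted p 3.3e-07) and exceeded J1-serum in TKO-serum (1.45) and 3B3l-serum (1.60), with adjusted p 2.4e-06 and 9.2e-07. Zfp57, which guards methylation at imprinted regions, was higher in 3B3l than in J1 by 1.71 ± 0.26 (SE, adjusted p 1.7e-04) in serum and 1.04 ± 0.28 (SE, adjusted p 0.010) in 2i, and did not pass in TKO in either medium.

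The 5 members whose group means spanned at least 1 log2 unit were compared with the other tested genes over the 6 centred group means, by root mean square (RMS) difference among 13867 genes. The closest to Setdb1 were Pih1d1, Eif2b4 and Ap3d1 (RMS difference 0.0597 to 0.086 log2). Trim28 was followed most closely by Ltbp4, Polr2j and Pds5b (0.0379 to 0.0879). For Ehmt2 they were Ptk7, Hilpda and Tmem132a (0.0906 to 0.113), for Suv39h1 Fam220a, Ankfy1 and H4c12 (0.0943 to 0.118), and for Cbx5 Cacna1a, Prpf19 and Thap6 (0.0634 to 0.0907). No other member was among these 15 genes, and the likeness is a description over 6 group means, that of Trim28 with a saturated array in TKO-serum.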

How the data were processed

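Total RNA was measured on 16 single-colour arrays of 62976 spots. Per the file headers, the deposited intensity values are Agilent Feature Extraction processed signals (version 11.5.1.1), with background subtraction by the scanner software. The deposited table of log2 values, made by the authors, holds 30170 probes normalized between arrays by steps not given in the sources used here. Its columns correlated best with an array of the named group in 16 of 16 cases but with the named array in 3, so it served as an alternative source of values only. How many molecules stand behind a spot is unknown, and the number of arrays limits the precision.

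Control spots and outlier spots were left out, spots of a probe were averaged, and each array's 75th percentile of log2 intensity was subtracted. A probe was tested if it was well above background on all arrays of 1 or more groups (27126 probes). Genes were named by matching RefSeq accessions to the RefSeq table, and promoters came from RefSeq (GRCm38.p6). A gene was represented by its tested probe with the highest mean. One linear model over the 6 groups was fitted with limma (version 3.58.1, R 4.3.3), and p-values were adjusted by Benjamini-Hochberg over all tested probes for each of 9 comparisons. The limma steps were tested on simulated data. The members and the list of other genes were chosen with earlier results of these data known. All 10 members were named, and of the other 49 genes those past the threshold and 2-fold in at least 1 comparison of groups.

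Alternatives were median and quantile scaling, normexp correction (offset 50, on the median spot signal), the authors' table, other filters on dim probes, slide as a block or within a slide, a replicate block, each array left out, the t-test named in the figure legends, the mean of a gene's probes and a 2-fold limit.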

Additional observations from a re-analysis of the deposited data

Results flagged for a closer look

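Responses to 2i that differed between lines by limma's test of the difference itself (adjusted over 27126 probes) were found for 4 members over all their probes. By the brightest probe, 1 of 9 members passed in the test of TKO against J1, where 30.4% of all genes did, and 2 of 9 in that of 3B3l against J1, where 31.9% did. For Ehmt2 the TKO response exceeded the J1 response by 0.69 on the log2 scale. For the second Atrx probe the responses of TKO and 3B3l differed from that of J1 by -1.27 and -0.97, while the brightest Atrx probe did not pass in either test. The 3B3l response differed from that of J1 by -0.48 for Setdb1 and by 1.04 for Suv39h1, and the Setdb1 difference missed the threshold in 15 of 19 alternatives. All of these tests share the J1 arrays. The alternatives were run on the brightest probe of each gene only, so the values of the second Atrx probe carry no such check. In J1-serum, the group of 4 arrays, 0 of 15 member probes had an array far from the other 3.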

How the results depend on the processing

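Of 31 member differences past the threshold, 15 passed limma's threshold under every change of scaling, background correction, source, filter, slide, replicate block or left-out array, and 16 missed it under at least 1. The t-test, the mean of probes and the 2-fold limit were applied to counts only. None of the 469 recomputed values of these 31 changed sign. Median scaling moved the median of all genes to 0.21 in the J1 response and 0.13 in the 3B3l response. For 3B3l-serum against J1-serum that median was 0.13 at the 75th percentile and 0.02 after quantile normalization. The cause of the following changes in the count of members passed was not tested. In the J1 response (5) it was 3 within slide 1. In the TKO response (3) it was 5 by the mean of probes. In the 3B3l response (2) it was 1 without a filter and 1 within slide 3. For TKO-2i against J1-2i (3) it was 1 by array median scaling. For 3B3l-serum against J1-serum (7) it was 3 with slide as a block and 3 within slide 3. For 3B3l-2i against J1-2i (3) it was 1 by quantile normalization, 1 of 8 in the authors' table and 7 by the mean of probes. For the difference between TKO and J1 responses (1) it was 2 by array median scaling, 2 by quantile normalization, 2 in the authors' table and 3 by the mean of probes. For that between 3B3l and J1 responses (2) it was 1 without a filter, 1 with slide as a block and 4 by the mean of probes. A 2-fold limit gave 1, 0 and 1 in the J1, TKO and 3B3l responses, 1 and 0 for TKO against J1 in serum and 2i, 3 and 0 for 3B3l against J1, and 0 and 1 for the differences between responses.

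The t-test of the figure legends gave, after adjustment, 0 members in the TKO response (2 at an unadjusted p under 0.05, against 3 and 4 by limma), 0 in the 3B3l response (3 unadjusted, against 2 and 3 by limma) and 3 for TKO-serum against J1-serum (5 unadjusted, against 5 and 6 by limma). Leaving out 1 array gave 4 to 5 members in the J1 response, 2 to 3 in the TKO response and 1 in the 3B3l response. It gave 3 to 5 for TKO-serum against J1-serum (3 without TKO-serum replicate 1), 2 to 3 for TKO-2i against J1-2i, 5 to 6 for 3B3l-serum against J1-serum and 1 to 2 for 3B3l-2i against J1-2i (1 without 3B3l-2i replicate 2). For the differences between responses it gave 1 to 3 for TKO (3 without TKO-serum replicate 2) and 0 to 2 for 3B3l. The 0 came without 3B3l-serum replicate 1, by limma, where all arrays gave 4 at an unadjusted p under 0.05.

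The labels give no shared origin for same-numbered arrays, and the numbers were not taken as a pairing. The deviations of same-numbered arrays correlated at -0.13 to 0.27, over 0.1 in 4 of 16 pairs. These were both pairs of the 3B3l response (0.27 and 0.27) and of 3B3l-serum minus J1-serum (0.20 and 0.14), and 2 pairs are too few to settle it. With the replicate block, 1 member passed in the 3B3l response, where Setdb1 missed the threshold, and 1 in the difference between 3B3l and J1 responses, where Setdb1 missed it too. The other calls lost under the block were Suv39h1 in 3B3l-serum (-0.40, adjusted p 0.10) and TKO-serum (-0.47, adjusted p 0.068) against J1-serum, and Cbx5 in the J1 response (0.43, adjusted p 0.083) and in TKO-2i against J1-2i (0.49, adjusted p 0.085), all by limma.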
